A study of Mus musculus with 4 samples.

Results

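Integrins are heterodimeric receptors of an alpha and a beta chain that bind the extracellular matrix or counter-receptors on other cells, and focal adhesion proteins couple their short cytoplasmic tails to actin. The 44 genes described here are the integrin subunits of matrix-adherent cells and of leukocytes, the integrin beta-like protein Itgbl1, the talins, kindlins, parvins, tensins and other adaptor and kinase genes of focal adhesions, and the collagen receptor kinases Ddr1 and Ddr2. A member was measured where a row of the expression table was annotated with that gene symbol and no other, and where a gene had several such rows the row with the highest mean was used. By this rule 40 of the 44 members were measured, among 22180 genes in all. Ptk2, Ilk, Lims2 and Nedd9 had no row of that kind and were not analysed here.

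Talin and kindlin bind the beta tail and switch the receptor to its ligand-binding state. Kinases such as FAK and its relative Pyk2, and adaptors such as paxillin, vinculin and p130Cas, then pass adhesion signals on. In the vessel wall, smooth muscle cells hold fibronectin, collagen and laminin through beta1 and alphav integrins. Leukocytes carry a separate set built on the beta2 chain, together with the hematopoietic kindlin and parvin.

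RNA came from primary vascular smooth muscle cells (VSMCs) grown from thoracic aortas of mice kept on Western diet for 3 months. All mice were Apoe(-/-), which lack the lipoprotein ligand apolipoprotein E, and all carried homozygous floxed Mmp14, the gene of the membrane-anchored matrix metalloproteinase MT1-MMP. The 2 knockout arrays came from SM22α-Cre(+)Mmp14(fl/fl)Apoe(-/-) cells and the 2 control arrays from SM22α-Cre(-)Mmp14(fl/fl)Apoe(-/-) cells, with 2 separate pairs of mice per the design text and no age in the labels. The SM22α (Tagln) promoter drives Cre in smooth muscle, so other cells of the culture were not the intended target of the deletion. Adventitia was removed, the aortas were digested with collagenase, and the cells were cultured for 5 days. The comparison asks which transcripts depend on MT1-MMP in these cells. With 2 arrays against 2, no exact two-sided permutation p can lie below 0.333, and mouse, culture and hybridisation all contribute to the spread behind each p-value.

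Values are log2 expression levels. Mmp14 read 8.71 and 9.05 in control arrays versus 8.27 and 8.19 in knockout arrays, a difference of -0.65 (SE 0.17; limma, adjusted p = 0.319). Whether its probe set extends beyond the floxed exons was not tested, and neither was the extent of the deletion. Tagln read 10.46 and 9.77 against 10.41 and 9.81, and Apoe 4.97 and 4.999 against 4.80 and 4.45. Array medians lay between 3.01 and 3.05. The 6 smooth muscle markers Acta2, Myh11, Tagln, Cnn1, Smtn and Des averaged 7.64 and 7.38 in controls versus 7.67 and 7.30 in knockouts, so the average of the labelled cell type's markers lay above the array medians. Smtn was lower in both knockout arrays, at 5.99 and 6.18 against 5.46 and 5.61, and the groups of the other 5 overlapped. Des was the dimmest of the list, at 3.58 and 3.65 against 3.54 and 3.69. The 10 macrophage markers averaged 6.83 and 6.88 in controls versus 8.02 and 8.20 in knockouts. Of the 10, 9 were higher in both knockout arrays than in both controls, as were 17.9% of all measured genes. The exception, Mertk, read 6.35 and 6.21 against 5.95 and 7.26. The 9 endothelial markers averaged 5.10 and 4.67 in controls versus 3.84 and 4.11 in knockouts, with Tek and Cldn5 below 3.02, the median of all row means, in every array. The 5 fibroblast markers averaged 5.22 and 5.82 in controls versus 5.44 and 5.38 in knockouts. Dpt read 6.87 and 5.84 against 4.40 and 5.28, without overlap. Pdgfra, Lum, Dcn and Pi16 overlapped between groups, and Pdgfra, Lum and Dcn were lowest in control replicate 1. Fewer cells of a type and less RNA per cell cannot be told apart in such bulk samples. The part these other cells play in the differences described next was not tested.

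No member passed the test across all genes. Limma called 0 of the 39 members that reached the filter level of 3.02, and 0 of 12550 genes tested, a background of 0%. At an unadjusted p under 0.05 stood 7 members, where the background over tested genes was 11.7%. Of these, 3 were higher (background 4.89%) and 4 lower (background 6.78%). The knockout arrays lay wholly above the controls for 9 of the 40 measured members (background 17.9% of measured and 16.7% of tested genes) and wholly below for 9 (background 22.1% and 27.5%). Together that is 18 of 40 (45.0%), against 40.1% of all measured genes and 44.3% of tested genes. For 7 members the groups did not overlap and differed by at least 1 log2 unit, against a background of 1.79% of measured and 3.08% of tested genes. These were Itgam, Itgb2 and Fermt3 on the higher side and Itgbl1, Itga3, Itga2 and Ddr2 on the lower. The median difference over the 40 members was 0.06, beside -0.01 over all measured genes.

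**Figure D1:**
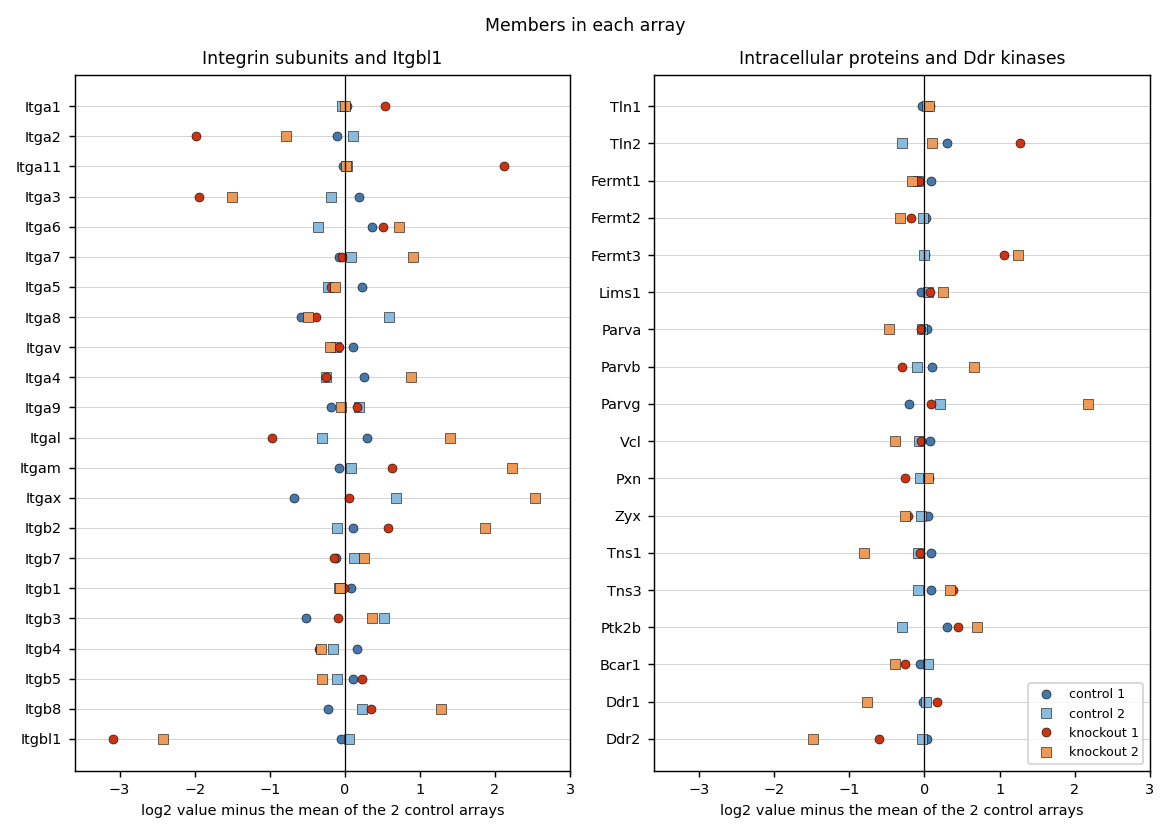
Each row is a member and each point an array, as its log2 value minus the mean of the 2 control arrays, with integrin subunits and Itgbl1 at left and intracellular proteins and Ddr kinases at right. Both knockout arrays lie left of the controls for Itgbl1, Itga3 and Itga2. For Itgax, Parvg and Itga11 a single knockout array stands apart from the other 3 arrays, and for Itgal the knockout arrays lie on both sides of the controls.

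The leukocyte members are Itgal, Itgam, Itgax, Itgb2, Itgb7, Parvg and Fermt3. All 7 had a knockout mean above the control mean, as had 47.1% of all measured genes, with differences of 0.06 to 1.42 and a median of 1.16. In 3 of the 7 (42.9%) the groups did not overlap, close to the 40.1% of all measured genes, and 0 of the 7 passed the test adjusted over all genes (smallest adjusted p = 0.155, limma). Knockout replicate 2 held the highest of the 4 values for all 7, which among all measured genes it did for 5315 of 22180. Relative to the control means, the median deviation of the 7 genes was 0.09 in knockout replicate 1, against 1.87 in knockout replicate 2. The same median for the 10 macrophage markers was 1.45 and 1.30, so the marker list was about as high in both knockout arrays while most leukocyte adhesion genes were not. Without knockout replicate 2 the median difference of the 7 genes was 0.09.

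Itgam, Itgax and Itgal encode the alpha chains CD11b, CD11c and CD11a, and all of them pair with the beta2 chain CD18 encoded by Itgb2. Itgam, a receptor for complement fragments and fibrinogen on myeloid cells, read 5.71 and 5.88 in controls versus 6.41 and 8.02 in knockouts. Its groups did not overlap, and the difference was 1.42 (SE 0.54, 95% interval 0.01 to 2.84; limma, adjusted p = 0.424). Itgb2 read 7.31 and 7.11 in controls versus 7.79 and 9.08 in knockouts. As for Itgam, knockout replicate 2 stood well above the rest and knockout replicate 1 above both controls. The Itgb2 difference was 1.22 (SE 0.44, 95% interval 0.06 to 2.38; limma, adjusted p = 0.405), or 0.58 without knockout replicate 2.

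Itgax, a marker of dendritic cells and of some macrophages, read 5.54 and 6.90 in controls versus 6.28 and 8.75 in knockouts. Its groups overlapped because knockout replicate 1 lay between the controls, and the difference of 1.29 (SE 0.93) became 0.05 without knockout replicate 2. Itgal, the LFA-1 chain of lymphocytes and other leukocytes, read 4.53 and 3.93 in controls versus 3.25 and 5.63 in knockouts. The knockout arrays of Itgal thus held both the lowest and the highest value, and the difference of 0.22 (SE 0.81) turned to -0.97 without knockout replicate 2. Itgb7, the chain that joins alpha4 or alphaE on gut-homing lymphocytes, was near the filter level throughout, at 3.09 and 3.34 against 3.07 and 3.47. The lymphocyte marker Cd3e read 2.73 and 2.77 in controls versus 2.66 and 3.56 in knockouts, and Cd3g 2.33 and 2.19 against 2.40 and 3.16, both highest in knockout replicate 2. The other lymphoid markers did not share this order: Cd79a read 2.50 and 2.93 against 2.38 and 2.44, and Ncr1 2.75 and 2.86 against 3.10 and 2.82. The neutrophil marker S100a8, the 1 marker of the list that reached the filter level, read 4.96 and 5.43 against 4.72 and 6.67. The other neutrophil markers were dimmer and did not share an order. S100a9 read 2.31 and 2.16 against 2.23 and 2.45. Ly6g read 2.34 and 2.65 against 3.13 and 2.30, lowest in knockout replicate 2. Over the list of dendritic cell, neutrophil and lymphocyte markers, 8 of the 9 measured had control means below 3.02, and the list averaged 2.79 and 2.96 in controls versus 2.92 and 3.24 in knockouts.

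Fermt3 encodes kindlin-3, the integrin activator of blood cells, whose loss causes a leukocyte adhesion deficiency. It read 4.63 and 4.62 in controls versus 5.69 and 5.87 in knockouts. Unlike the alpha chains above it was nearly as high in knockout replicate 1 as in knockout replicate 2. The difference was 1.16 (SE 0.14, 95% interval 0.78 to 1.54; limma, adjusted p = 0.155), or 2.23-fold, and it ran from 1.07 to 1.25 with each array left out. Parvg encodes gamma-parvin, the hematopoietic parvin. It read 3.45 and 3.86 in controls versus 3.74 and 5.84 in knockouts, so only knockout replicate 2 stood apart, and the difference of 1.14 (SE 0.71) was 0.09 without it.

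**Figure D2:**
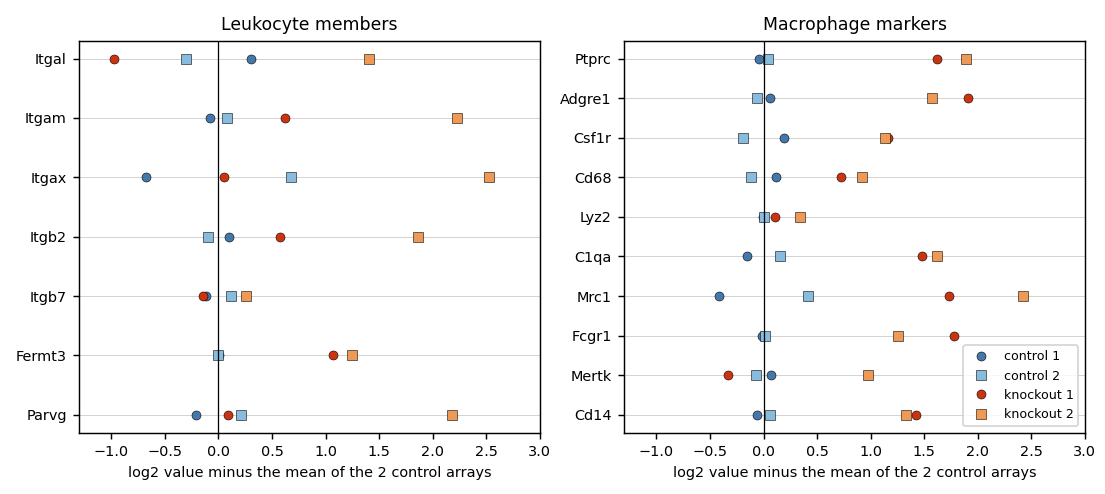
Points are arrays, plotted as the log2 value minus the mean of the 2 control arrays, for the 7 leukocyte members at left and the 10 macrophage markers at right. Knockout replicate 2 lies rightmost for every leukocyte member, whereas both knockout arrays lie together to the right for most macrophage markers, among them Ptprc, Adgre1, Csf1r and Cd14.

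The promoters of 4 of the 5 leukocyte members with a window in the RefSeq table are shown because these genes were highest in knockout replicate 2. The fifth, Itgb7, is left out because it was near the filter level in every array. The windows cover 250 bases before the transcription start in build GRCm38.p6, written 5′ to 3′ on the gene's strand, and capitals mark matches on either strand to 5 motifs. These were the PU.1 core GAGGAA, the TEAD core GGAATG, the AP-1 sites TGACTCA and TGAGTCA, the GC box GGGCGG and the CArG box. The PU.1 and TEAD cores can share letters, and an AP-1 site reads as a site on both strands. Of 32851 windows of this length, 23.3% held the PU.1 core, 12.6% the TEAD core, 4.46% an AP-1 site, 32.7% the GC box and 1.47% a CArG box. The windows are chr7:128062390-128062639 on the plus strand for Itgam, chr7:128129300-128129549 on the plus strand for Itgax, chr15:84324470-84324719 on the plus strand for the more upstream of the 2 Parvg starts, and chr19:7019470-7019719 on the minus strand for Fermt3.
Itgam: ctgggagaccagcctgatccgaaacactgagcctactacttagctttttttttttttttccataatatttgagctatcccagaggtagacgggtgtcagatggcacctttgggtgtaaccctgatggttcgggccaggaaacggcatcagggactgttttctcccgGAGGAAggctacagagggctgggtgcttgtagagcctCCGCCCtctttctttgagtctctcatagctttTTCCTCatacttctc
Itgax: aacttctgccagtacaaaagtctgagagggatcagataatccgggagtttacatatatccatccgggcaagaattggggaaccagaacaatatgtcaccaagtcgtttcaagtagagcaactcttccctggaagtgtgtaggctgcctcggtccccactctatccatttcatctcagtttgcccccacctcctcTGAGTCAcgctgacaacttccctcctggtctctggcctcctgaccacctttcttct
Parvg: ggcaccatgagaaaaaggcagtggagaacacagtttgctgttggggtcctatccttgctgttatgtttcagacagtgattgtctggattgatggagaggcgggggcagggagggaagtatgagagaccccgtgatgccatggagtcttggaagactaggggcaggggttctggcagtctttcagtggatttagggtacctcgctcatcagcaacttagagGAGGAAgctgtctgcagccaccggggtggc
Fermt3: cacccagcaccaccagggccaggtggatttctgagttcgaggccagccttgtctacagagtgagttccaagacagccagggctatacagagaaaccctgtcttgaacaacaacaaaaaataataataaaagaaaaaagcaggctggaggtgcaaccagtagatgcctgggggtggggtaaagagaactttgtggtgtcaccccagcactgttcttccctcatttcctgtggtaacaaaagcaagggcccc

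The Itgam window held the PU.1 core at bases 84 to 79 before the start and, on the other strand, at bases 15 to 10, with a GC box at 47 to 42. PU.1 is a transcription factor of myeloid and B cells. The Parvg window held its PU.1 core at bases 30 to 25, the Itgax window an AP-1 site at bases 56 to 50, and the Fermt3 window 0 matches. Counted per gene over any of its windows, 2 of 5 leukocyte members and 2 of 10 mesenchymal members with a window held the PU.1 core. A match is a string of letters and not a measured binding site.

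The mesenchymal members are Itga1, Itga5, Itga7, Itga8, Itga9, Itga11, Itgb5, Itgbl1, Parva, Fermt2, Tns1 and Ddr2, genes known from smooth muscle and other connective tissue cells. Of the 12, 8 had a knockout mean below the control mean and 4 above, with a median difference of -0.20 and a range of -2.75 to 1.06. The groups did not overlap for 4 of them, all lower (Itgbl1, Ddr2, Parva and Fermt2), a share of 33.3% beside 40.1% of all measured genes, and 0 passed the test over all genes. Knockout replicate 2 held the lowest of the 4 values for 5 of the 12, and for 6012 of 22180 measured genes. The leukocyte median minus the mesenchymal median was 1.36 with all arrays, 2.18 without knockout replicate 1 and 0.14 without knockout replicate 2. The contrast between both sets of members therefore rests mainly on knockout replicate 2.

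For 6 pairs of related members the difference of the second gene was subtracted from that of the first, and in 3 of the 6 the ratio of the pair overlapped between groups. Fermt3 and its relative Fermt2 (kindlin-2), a mesenchymal member, differed by 1.41, with the ratio higher in both knockout arrays than in both controls (two-sided exact permutation p = 0.333, the smallest this design can give). Itgb2 and Itgb1 gave 1.26, again without overlap (exact permutation p = 0.333). Parvg and Parva gave 1.39, but here the ratio in knockout replicate 1 lay between the controls (exact permutation p = 0.667). Itgam and Itga1 gave 1.15 with overlap (exact permutation p = 0.667), and Itga8 and Itga5, both fibronectin-binding chains, gave -0.28 with overlap (exact permutation p = 1.00). Ddr2 and Ddr1 gave -0.75 without overlap (exact permutation p = 0.333). After Benjamini-Hochberg adjustment the p-values were 0.667 to 1.00.

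Itgbl1 had the widest gap of any member. It encodes a secreted protein with the cysteine-rich repeats of integrin beta chains but without their ligand-binding and membrane-spanning parts. Itgbl1 read 7.55 and 7.66 in controls versus 4.52 and 5.19 in knockouts. The log2 difference was -2.75 (SE 0.26, 95% interval -3.42 to -2.08; limma, adjusted p = 0.137), so that controls read 6.73-fold higher. Leaving out each array in turn gave -3.08 to -2.42. The lower knockout value was in knockout replicate 1, as it was for all 7 leukocyte members. For Itgbl1, however, knockout replicate 1 was the knockout array farther from the controls.

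A laminin-binding and a collagen-binding alpha chain were next in size on the lower side. Itga3, the alpha3 chain that joins beta1 to bind laminin and is prominent in epithelium, read 5.42 and 5.06 in controls versus 3.30 and 3.74 in knockouts. Its difference was -1.72 (SE 0.23, 95% interval -2.32 to -1.12; limma, adjusted p = 0.157) and stayed between -1.94 and -1.50 with each array left out. Itga2, the alpha2 chain of the platelet and epithelial collagen receptor, read 6.49 and 6.72 in controls versus 4.62 and 5.82 in knockouts. Its difference was -1.38 (SE 0.42, 95% interval -2.48 to -0.29; limma, adjusted p = 0.356), and -0.78 without knockout replicate 1. For Itgbl1, Itga3 and Itga2 alike, the knockout arrays lay wholly below the controls and knockout replicate 1 was the lowest.

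The epithelial markers Epcam and Krt14 were below 3.02 in every array. Krt8 read 3.49 and 3.69 against 3.78 and 3.65, and Krt18 3.50 and 4.89 against 3.47 and 3.61. Cdh1 read 3.13 and 2.77 against 2.78 and 3.64. The groups of Krt8, Krt18 and Cdh1 overlapped. The 5 epithelial markers averaged 2.96 and 3.26 in controls versus 2.96 and 3.04 in knockouts. The platelet markers Itga2b and Gp9 were also below 3.02 in every array, while the third, Pf4, which macrophages can also express, read 4.34 and 5.24 against 5.49 and 8.12. Of the 9 endothelial markers, 7 had a knockout mean below the control mean, as Itga3 and Itga2 did, 6 of them without overlap. Pecam1 read 6.69 and 6.34 in controls versus 3.93 and 4.12 in knockouts, and Cdh5 8.72 and 6.97 against 4.999 and 5.68. The other 2 had knockout means above the control means: Kdr read 3.99 and 3.94 against 4.49 and 4.10, without overlap, and Vwf 4.10 and 4.29 against 3.98 and 4.998. The part of these markers in the results was not tested.

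The upstream windows of these 3 genes are shown as those of the members with the largest negative differences, in the same format. The window of Itgbl1 is chr14:123659890-123660139 on the plus strand, that of Itga2 chr13:114932101-114932350 on the minus strand and that of the more upstream of the 2 Itga3 starts chr11:95076715-95076964 on the minus strand.
Itgbl1: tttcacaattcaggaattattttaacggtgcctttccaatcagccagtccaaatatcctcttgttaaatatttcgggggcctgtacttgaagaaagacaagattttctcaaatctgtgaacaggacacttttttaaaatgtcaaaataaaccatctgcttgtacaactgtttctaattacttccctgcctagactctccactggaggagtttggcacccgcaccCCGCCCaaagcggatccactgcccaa
Itga2: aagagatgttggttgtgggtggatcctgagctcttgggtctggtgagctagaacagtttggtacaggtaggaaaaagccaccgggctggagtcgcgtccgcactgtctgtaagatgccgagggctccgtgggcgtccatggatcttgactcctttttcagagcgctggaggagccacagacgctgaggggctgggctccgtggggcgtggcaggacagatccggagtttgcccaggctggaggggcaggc
Itga3: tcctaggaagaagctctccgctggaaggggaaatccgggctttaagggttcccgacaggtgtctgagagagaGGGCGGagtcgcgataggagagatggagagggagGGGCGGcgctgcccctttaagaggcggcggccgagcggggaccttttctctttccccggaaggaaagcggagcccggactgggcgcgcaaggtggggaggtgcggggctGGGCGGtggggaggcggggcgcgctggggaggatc

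The Itgbl1 window held 1 GC box, at bases 26 to 21, the Itga3 window held 3, the nearest at bases 35 to 30, and the Itga2 window 0 matches to any of the 5 motifs. The TEAD core, the recognition sequence of the partners of YAP and TAZ, was in 0 of the 5 leukocyte and 0 of the 10 mesenchymal members with a window.

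The other alpha chains had smaller or less even differences. Among the collagen-binding chains, Itga1 read 5.08 and 5.01 against 5.58 and 5.05. Itga11, the alpha11 chain of fibroblasts that binds fibrillar collagen, read 3.99 and 4.04 in controls versus 6.13 and 4.03 in knockouts. Only knockout replicate 1 of Itga11 stood apart, and the difference of 1.06 (SE 0.70) was 0.01 without it. Among the laminin-binding chains, Itga6, a partner of beta1 and beta4, read 6.20 and 5.47 against 6.34 and 6.56, without overlap and with a difference of 0.61 (SE 0.28; limma, adjusted p = 0.487). Itga7, the laminin receptor chain of muscle, read 4.19 and 4.35 against 4.22 and 5.17, and its difference of 0.43 turned to -0.05 without knockout replicate 2. Thus the laminin-binding chains did not share a direction, with Itga3 lower and Itga6 higher in both knockout arrays.

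Among the chains that bind the RGD sequence of fibronectin and related ligands, Itga5 and Itgav were close between groups. Itga5, the main fibronectin receptor chain, read 8.80 and 8.34 against 8.39 and 8.44, and Itgav 9.25 and 9.02 against 9.06 and 8.94. Their differences were -0.16 (SE 0.20, 95% interval -0.67 to 0.36) and -0.14 (SE 0.16, 95% interval -0.55 to 0.27). Itga8, a chain of contractile smooth muscle that binds nephronectin, read 3.23 and 4.40 in controls versus 3.44 and 3.32 in knockouts, so 1 control array stood above the rest. The Itga8 difference was -0.44 (SE 0.41, 95% interval -1.50 to 0.62). Itga4, which binds VCAM1 and is shared by leukocytes and mesenchymal cells, read 4.88 and 4.39 against 4.38 and 5.52, and Itga9 4.26 and 4.62 against 4.61 and 4.39. The groups of all 5 overlapped.

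Itgb1, the common partner of the matrix-binding alpha chains, read 10.36 and 10.20 in controls versus 10.27 and 10.21 in knockouts. Its difference of -0.04 had a 95% interval of -0.41 to 0.33, so changes larger than these bounds were outside the interval. Itgb5, a partner of alphav, differed by -0.04 (95% interval -0.63 to 0.56), and by 0.01 after a second quantile normalisation. Itgb3, the chain of the vitronectin receptor, read 4.33 and 5.36 against 4.75 and 5.20. Itgb4, which joins alpha6 in epithelial hemidesmosomes, read 4.48 and 4.16 against 3.98 and 4.01, without overlap and with a difference of -0.33. Itgb8, which with alphav activates latent TGF-beta, read 4.47 and 4.92 against 5.03 and 5.97, without overlap, a difference of 0.81 (SE 0.36; limma, adjusted p = 0.481) or 0.34 without knockout replicate 2.

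**Figure D3:**
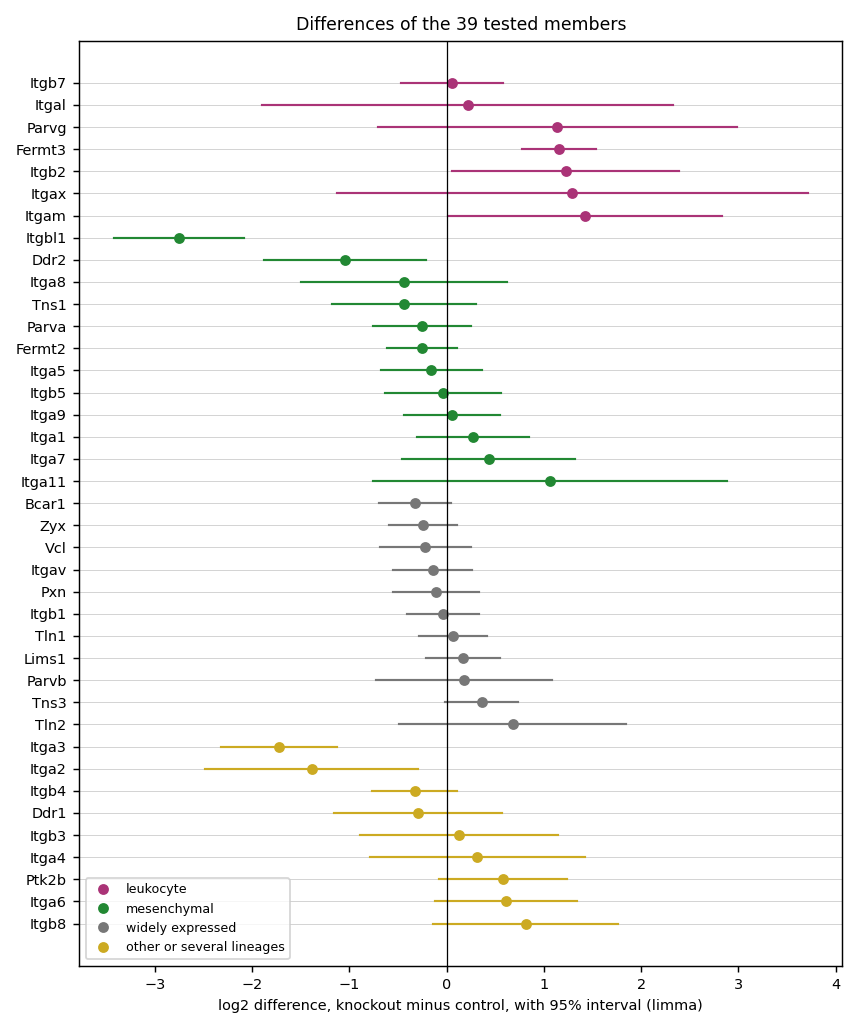
Points are log2 differences, knockout minus control, and lines their 95% intervals from limma for the 39 tested members, coloured by the lineage in which each gene is best known. The intervals of Fermt3, Itgb2 and Itgam lie above 0 and those of Itgbl1, Itga3, Itga2 and Ddr2 below, without adjustment for the number of genes.

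The 11 measured widely expressed members, most of them proteins inside the cell, had a median difference of -0.04 and a range of -0.32 to 0.68. The groups did not overlap for 5 of them (45.5%), beside 40.1% of all measured genes. Tln1, the talin that links beta tails to actin, read 7.69 and 7.76 against 7.79 and 7.78, a difference of 0.07 (SE 0.13). Vcl, vinculin, which reinforces loaded talin, read 8.87 and 8.73 against 8.76 and 8.40, and Pxn, the scaffold paxillin, 5.68 and 5.56 against 5.36 and 5.66, both with overlap. Zyx, zyxin, which marks mature adhesions, read 9.59 and 9.51 against 9.33 and 9.29, lower in both knockout arrays, with a difference of -0.24 (SE 0.13; limma, adjusted p = 0.548). Fermt2, kindlin-2, read 7.89 and 7.86 against 7.69 and 7.55, and Bcar1, the p130Cas scaffold, 7.09 and 7.20 against 6.89 and 6.75. Zyx, Bcar1 and the mesenchymal members Fermt2 and Parva were lower in both knockout arrays, with differences of -0.32 to -0.24.

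Among the parvins and PINCH proteins, which hold integrin-linked kinase at the beta tail, Parva read 8.79 and 8.71 against 8.71 and 8.28. Parvb read 6.66 and 6.46 against 6.26 and 7.22, with the knockout arrays on both sides of the controls. Lims1, PINCH-1, read 6.36 and 6.45 against 6.49 and 6.66, higher in both knockout arrays by 0.16. The tensins, which tie fibrillar adhesions to actin, went opposite ways: Tns1 read 9.29 and 9.11 against 9.14 and 8.39, and Tns3 7.27 and 7.10 against 7.57 and 7.53. Tns3 was higher in both knockout arrays, by 0.36 (SE 0.14; limma, adjusted p = 0.441), and the groups of Tns1 overlapped. Tln2, the second talin, read 5.01 and 4.42 against 5.98 and 4.81, and the difference of 0.68 was 0.09 without knockout replicate 1. Fermt1, the epithelial kindlin, was below the filter level in every array (2.54 and 2.36 against 2.38 and 2.28).

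Ptk2b encodes Pyk2, the calcium-sensitive relative of FAK that is prominent in macrophages and neurons. It read 6.24 and 5.63 in controls versus 6.38 and 6.63 in knockouts. The groups did not overlap, and the difference was 0.58 (SE 0.25; limma, adjusted p = 0.474). Ddr2, a tyrosine kinase receptor for fibrillar collagen in mesenchymal cells, read 7.50 and 7.42 in controls versus 6.85 and 5.97 in knockouts. Both knockout arrays were below both controls, with a difference of -1.05 (SE 0.32, 95% interval -1.88 to -0.22; limma, adjusted p = 0.356) that was -0.60 without knockout replicate 2. Ddr1, its relative of epithelium, read 6.47 and 6.50 against 6.65 and 5.73, with overlap. Both Ddr genes were lowest in knockout replicate 2.

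Ligands of these receptors were taken from a separate list of 23 genes, of which 22 were measured and 20 tested. Of the 22, 11 were above and 11 below 0, 5 and 8 of them without overlap (17.9% and 22.1% of all measured genes), and 0 were called (smallest adjusted p = 0.148, limma). The median difference was -0.04. Vcam1, the counter-receptor of alpha4 integrins, read 8.22 and 8.26 against 7.22 and 6.86, a difference of -1.20 (SE 0.18; limma, adjusted p = 0.172). Of the laminin chains, Lama2 read 6.19 and 6.32 against 5.04 and 5.06 (difference -1.20, SE 0.14; limma, adjusted p = 0.148), and Lamb1 7.71 and 7.55 against 6.57 and 6.93. Lama4 was higher in both knockout arrays, at 5.82 and 5.83 against 6.38 and 6.24. The list's remaining laminin chains, Lama5 and Lamc1, named after their values were seen, were lower without overlap, at 4.15 and 4.37 against 3.86 and 3.78, and at 7.54 and 7.56 against 7.24 and 7.25. Col3a1, a fibrillar collagen chain, read 5.45 and 5.40 against 6.999 and 6.22, and Fn1, fibronectin, 10.96 and 10.60 against 10.38 and 10.06.

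**Figure D4:**
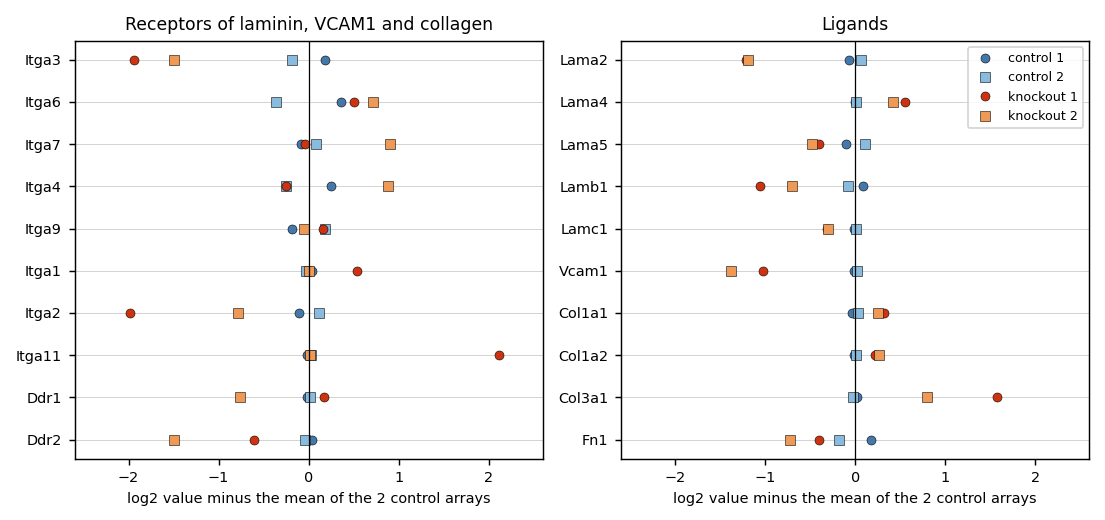
Points are arrays, plotted as the log2 value minus the mean of the 2 control arrays, for receptors of laminin, VCAM1 and collagen at left and for ligands at right. Lama2, Lama5, Lamb1, Lamc1, Vcam1, Fn1, Itga3, Itga2 and Ddr2 have both knockout arrays left of the controls, and Lama4, Col1a1, Col1a2, Col3a1 and Itga6 have both to the right.

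A list of 41 further genes of the adhesome, the protein network at integrin tails, had 37 measured and 32 tested genes. Of the 37, 13 were above and 24 below 0, 6 and 12 of them without overlap, with a median of -0.11 and 0 called (smallest adjusted p = 0.181, limma). These 18 genes without overlap were 48.6% of the list, near the 40.1% of all measured genes. Lpxn, leupaxin, the paxillin relative of leukocytes, read 3.15 and 3.67 against 5.47 and 4.96, a difference of 1.80 (SE 0.27). Fyb, an adaptor that links leukocyte receptors to integrin activation, read 5.53 and 5.04 against 6.65 and 6.20, and Cd47, the integrin-associated protein, 7.92 and 8.07 against 8.41 and 8.61. Lpxn and Fyb were higher in both knockout arrays and highest in knockout replicate 1. The list's other genes that were higher without overlap were Cd47 and, named after their values were seen, Skap2, Apbb1ip and Limd1. These were highest in knockout replicate 2, as were all 7 leukocyte members. On the lower side were Cav1, caveolin-1, at 8.07 and 7.65 against 6.57 and 6.94, Tns2, a tensin, at 6.62 and 6.96 against 6.36 and 5.75, and Enah, an actin regulator of the VASP family, at 7.20 and 6.65 against 6.36 and 6.26.

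Leaving out each array in turn separated members by how far they rested on a single array. The difference kept its sign in all refits for 27 of the 40 members. For the 18 members without overlap, among them Itgam, Itgb2, Fermt3, Itgbl1, Itga3, Itga2 and Ddr2, leaving out an array could not change the sign. For these only the size of the difference is informative. It changed sign without some array for 13, which were Itga4, Itga5, Itga7, Itga8, Itga9, Itgal, Itgb1, Itgb3, Itgb5, Itgb7, Parvb, Pxn and Ddr1. Of the 7 members whose groups differed by at least 1 log2 unit without overlap, Itgam and Itgb2 depended most on a single array, with 0.62 and 0.58 without knockout replicate 2.

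**Figure D5:**
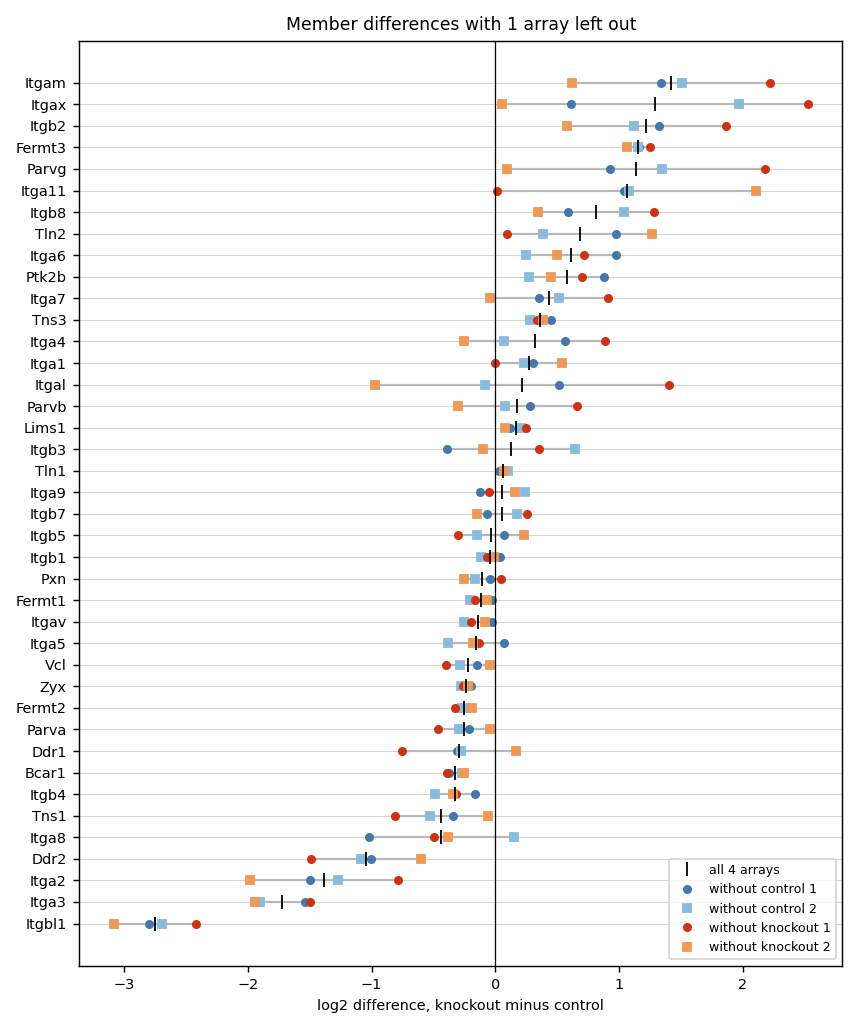
For each member, ordered by difference, the tick is the log2 difference with all 4 arrays and the points are the differences with 1 array left out. The points of Fermt3, Itga3 and Itgbl1 stay together on their side of 0, while those of Itgal, Itgax, Parvg and Itga11 are spread widely, with Itgal on both sides of 0.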

How the data were processed

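Total RNA, 10 ng per sample per the labels' protocols, was amplified, labelled with biotin and hybridised to Mouse Gene ST 2.1 strips. The authors deposited log2 values for 41345 rows, which the submitters' processing notes say were made with RMA. Their log base was inferred from the span of 1.17 to 12.4. Neither software version, chip definition nor genome build is given in the sources used here. Arrays have no read depth, and their number limits the precision. RMA values of dim probes are compressed towards a floor, so differences of dim genes may be understated. Groups were taken from the sample titles.

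Gene names came from the platform annotation of the probes: 23521 had 1 symbol, 1814 several and 16010 none there. For 1082 of the 22180 genes with several rows the row with the highest mean was kept. The 12550 genes with a mean of at least 3.02, the median of all row means, were fitted in limma 3.58.1 (R 4.3.3; lmFit and eBayes, knockout minus control, no covariate), with Benjamini-Hochberg adjustment over all of them and a threshold of 0.05. Medians over lists cover all measured members, whether or not they passed the filter. Alternatives were the title number as a block, other filters, normalisations and variance models, array weights, the mean of a gene's rows and leaving out each array. On simulated data for this comparison with 12550 genes, limma found 4 of the 50 genes with a true shift of 1 log2 unit. It found 41 of 50 at a shift of 2, 48 of 50 at 3 and 50 of 50 at 4, beside 8 false calls. The simulated noise was independent for each gene and array, so these rates need not hold for the real arrays. There Itgbl1, with a difference of -2.75, was not called. Every member was named. Outside the members the rule took Mmp14, Tagln and Apoe, up to 6 genes without overlap per further list, and the markers. The members, their division by lineage and role, and the lists were chosen with earlier results of these data known, and the promoters and motifs after the values were seen. Promoter windows came from RefSeq (GRCm38.p6), which held 32 of the 44 members. Plots were drawn with matplotlib 3.10.9.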

Additional observations from a re-analysis of the deposited data

How the results depend on the processing

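Limma called 0 genes under all 13 alternatives, with a smallest adjusted p over all genes of 0.0708 to 0.429 and 929 to 2125 genes at an unadjusted p under 0.05. The smallest adjusted p of a member was 0.0764, for Itgbl1 with a trended and robust variance model. With the title number as a replicate block the counts of calls and all differences were those without it, and the adjusted p was 0.0942 for Itgbl1 and 0.128 for Fermt3. The deviations of same-numbered arrays from their group means correlated at 0.05 over genes, and no label ties a number to a pair of mice. Without knockout replicate 2 the leukocyte median was 0.091, the mesenchymal median -0.054 and the difference of both 0.14. Over the 4 arrays left out in turn these ran from 0.091 to 1.87, from -0.31 to -0.054 and from 0.14 to 2.18. The count of members without overlap ran from 25 to 32, since fewer arrays overlap less often: among all measured genes 68.9% to 71.3% did not overlap. Signs changed with 1 array left out for 13 members: Itga4 (-0.25 to 0.89), Itga5 (-0.38 to 0.07), Itga7 (-0.045 to 0.91), Itga8 (-1.02 to 0.15), Itga9 (-0.12 to 0.24), Itgal (-0.97 to 1.40), Itgb1 (-0.12 to 0.04), Itgb3 (-0.39 to 0.65), Itgb5 (-0.30 to 0.23), Itgb7 (-0.15 to 0.26), Parvb (-0.30 to 0.66), Pxn (-0.26 to 0.043) and Ddr1 (-0.76 to 0.17). Itgb5 also changed sign to 0.011 after a second quantile normalisation. The cause of these changes was not tested. Refits without an array take the spread from the remaining pair, so the lone array is assumed to vary as they do.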

Other observations

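Ddr1 and Itgav each had a second row with the same single symbol. The second row of Ddr1 read 2.61 and 2.58 in controls versus 2.27 and 2.43 in knockouts, and that of Itgav 2.48 and 2.50 against 2.42 and 2.38, both below the filter level of 3.02 in every array. In both genes the 2 rows gave differences of the same sign, at -0.29 and -0.25 for Ddr1 and -0.14 and -0.09 for Itgav.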
